A study of Mus musculus with 2 samples.

Results

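Actins and the proteins that act at the ends of thin filaments were described in heart tissue as a set of 10 genes, out of 16269 reference genes with counts in the series. The 10 genes were Actc1, Acta1, Acta2, Actg2, Actb, Actg1, Tmod1, Lmod2, Lmod3 and Cfl2, picked by gene name in the quantification table of each library, and the counts of all transcript models of a gene were added. The tissue was heart of male mice of strain B6CASTF1/J (hybrids of C57BL/6J and CAST parents) aged 14 days with no treatment named, and it was profiled by long-read RNA sequencing. The series holds 1 group of 2 libraries, replicate 1 and replicate 2, each started from 2 µg of total RNA with spike-ins added. The tissue of each library is labelled as coming from 3 males, with no word on pooling. The same donor label stands on both, and both descriptions name the same tissue sample and cDNAs. Their tissue samples nonetheless carry different numbers, so whether the replicates are separate animals is not clear. An SD or p-value here reflects how far apart these 2 samples lie, and part of that may be technical. With 1 group there is no comparison of conditions. Each test below compares these 2 libraries on counting error alone, except edgeR's exact test, which takes the spread between them as noise.

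Replicate 1 held 1059016 counts on reference genes and replicate 2 held 1064679. These totals set the scale of counts per 1000000 (CPM), on which 1 count was worth 0.944 and 0.939 CPM. Cardiomyocyte markers (9 of 9 detected) took 3.67% and 3.80% of the counts. Of 7 skeletal muscle markers 5 (Myh1, Myh2, Myh4, Tnnt3 and Actn3) had 0 counts in each library, and the 7 together had 3 and 9. The libraries stood apart in atrial markers (Nppa, Myl7, Myl4, Sln, Bmp10 and Dkk3), which took 0.498% of the counts of replicate 1 and 0.126% of those of replicate 2, with 5 of 6 past the test and higher in replicate 1. Fewer cells of a type and less RNA per cell cannot be told apart in bulk tissue.

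Muscle thin filaments are polymers of actin. Their barbed ends are anchored and capped at the Z-disc, and their pointed ends lie toward the middle of the sarcomere, where tropomodulins cap them and leiomodins promote their elongation. Vertebrates have separate genes for the sarcomeric actins of heart and skeletal muscle, the smooth muscle actins and the cytoplasmic actins that every cell makes. Cofilins bind the sides of actin filaments and sever or depolymerise them, which allows filaments to turn over.

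The 6 actins are alike in sequence, which matters for the assignment of reads. Pairwise identity over the coding sequence ran from 81.5% to 88.6% in 15 pairs, highest between Actb and Actg1, and the longest run of bases shared exactly by any pair was 77, between Acta1 and Actb. The first 45 coding bases of each dominant transcript are shown because they code for the amino terminus, where the actin isoforms are known to differ. Capitals mark bases that differ from Actc1 after alignment of the whole coding sequences. The stretches lie on the minus strand of mm10 at chr2:114051987-114052031 (Actc1), chr8:123893653-123893697 (Acta1), chr19:34252509-34252553 (Acta2), chr6:83527397-83527441 (Actg2), chr5:142905642-142905686 (Actb) and chr11:120348047-120348091 (Actg1), and were read from the GENCODE M21 transcripts.
Actc1: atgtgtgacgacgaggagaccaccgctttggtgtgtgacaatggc
Acta1: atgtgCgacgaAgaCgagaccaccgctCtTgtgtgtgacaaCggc
Acta2: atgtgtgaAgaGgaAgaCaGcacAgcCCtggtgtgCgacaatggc
Actg2: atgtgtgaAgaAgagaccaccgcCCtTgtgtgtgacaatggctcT
Actb: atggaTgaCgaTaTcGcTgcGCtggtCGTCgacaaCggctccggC
Actg1: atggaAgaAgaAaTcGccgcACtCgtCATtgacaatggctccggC
In this window Acta1 and Actg2 each carried 6 capitals, Acta2 9, Actg1 12 and Actb 14. Bases of Actc1 that a gene lacks are not marked. The whole alignment with Actc1 held 3 gap positions for Actg2 and 6 each for Actb and Actg1. Other genes that could take reads were searched for as transcripts sharing at least 50% of their runs of 31 bases with a member. Only Actg1 had any, the 3 genes Gm8399, Gm12715 and Actg-ps1, which together held 0 and 3 counts.

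Cardiac actin was by far the most abundant of the set. Actc1, the main actin of the adult heart sarcomere, had 6686 counts in replicate 1 and 7150 in replicate 2, or 6313 and 6716 CPM (6515 ± 284, SD, n = 2), and ranked 13 and 12 among all genes. Acta1, the skeletal muscle actin that the heart also makes, had 623 and 776 counts, or 588 and 729 CPM (659 ± 99.4). For each of these genes both libraries lay above every value of the genes below it. Per kilobase of the dominant transcript (1473 bases for Actc1-201 and 1446 for Acta1-201) the levels were 4423 and 455 CPM per kilobase, a ratio of 9.71. A long read counts a molecule once whatever its length, so CPM is not itself divided by length.

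Among molecules of these sarcomeric actins, Acta1 made up 8.52% in replicate 1 (95% Clopper-Pearson interval 7.89 to 9.19) and 9.79% in replicate 2 (9.14 to 10.5), higher in replicate 2. The share differed between the libraries by Fisher's exact test (adjusted p = 0.0335 over 11 pairs of genes). The markers of skeletal muscle were at or near 0 beside this level of Acta1, as given above.

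The smooth muscle actins stood far apart in level. Acta2, the actin of vascular smooth muscle that embryonic heart muscle also makes, had 318 and 386 counts, or 300.3 and 363 CPM (331 ± 44.03). Actg2, the actin of gut smooth muscle, had 3 counts in replicate 1 and 0 in replicate 2, at or under the limit of 3 counts (2.83 and 2.82 CPM) that a count of 0 allows. Smooth muscle and pericyte markers (9 of 9 detected) summed to 649 and 699 CPM, most of it Rgs5, a pericyte gene, while Myh11, the smooth muscle myosin, had 8 and 15 counts. Between the libraries 0 of the 9 passed the exact binomial test described below. Their part in the level of Acta2 was not tested.

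The cytoplasmic actins differed most between the libraries. Actb had 319 counts in replicate 1 and 535 in replicate 2, or 301 and 502 CPM (402 ± 142). Actg1 had 471 and 617 counts, or 445 and 580 CPM (512 ± 95.3). Each was higher in replicate 2. Together they made up 9.38% of the molecules of all 6 actins in replicate 1 (8.77 to 10.03) and 12.2% in replicate 2 (11.5 to 12.9), a difference past the test (adjusted p = 2.2e-08, Fisher's exact test, 11 pairs).

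Within the cytoplasmic pair the balance differed too. Actg1 made up 59.6% of Actb and Actg1 molecules in replicate 1 (56.1 to 63.1) and 53.6% in replicate 2 (50.6 to 56.5), with an adjusted p of 0.0335 in Fisher's exact test. Without models of the class Genomic, which are described below, this call was lost (451 and 610 counts of Actg1 against 314 and 531 of Actb, adjusted p = 0.0687, Fisher's exact test). Models on the strand opposite to Actb, also described below, are left out of these shares. With them Actb had 412 and 613 counts, closer to the 471 and 617 of Actg1, and the share was not tested on those counts.

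Of the member genes for pointed-end proteins, that of the cap had more RNA counts than those of the leiomodins. Protein was not measured. Tmod1, which caps the pointed ends of thin filaments in heart, had 371 and 404 counts, or 350 and 379 CPM (365 ± 20.6). Lmod2, the cardiac leiomodin that lengthens thin filaments, had 87 and 84 counts (80.5 ± 2.30 CPM), and Lmod3, best known from skeletal muscle, had 84 in each library (79.1 ± 0.298 CPM). For each molecule of Lmod2 there were 4.26 of Tmod1 in replicate 1 and 4.81 in replicate 2. Per kilobase, a scale that lowers the longer transcript of Tmod1, its mean level was 2.83 times that of Lmod2.

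By count, Lmod2 made up 19% of Lmod2 and Tmod1 molecules in replicate 1 (15.5 to 22.9) and 17.2% in replicate 2 (14.0 to 20.9). Lmod3 made up 49.1% (41.4 to 56.9) and 50% (42.2 to 57.8) of Lmod3 and Lmod2 molecules, so these counts leave a wide range for the balance of the leiomodins. For each molecule of Tmod1 there were 18.02 and 17.7 of Actc1, and neither share passed the test (adjusted p = 0.740 for Lmod2 with Tmod1 and 0.907 for Tmod1 with Actc1, Fisher's exact test).

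Cfl2, the muscle cofilin, had 385 and 436 counts, or 364 and 410 CPM (387 ± 32.5). It exceeded the non-muscle cofilin Cfl1 (272 and 291 counts) and made up 58.6% (54.7 to 62.4) and 59.97% (56.3 to 63.6) of cofilin molecules, with an adjusted p of 0.760 between the libraries in Fisher's exact test.

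By mean CPM per kilobase the order was Actc1, Acta1, Actg1, Actb, Acta2, Cfl2, Tmod1, Lmod2, Lmod3 and Actg2. Since a long read counts a molecule once, this scale lowers long transcripts and does not rank molecules. Only Actg1 with Actb and Actb with Acta2 overlapped between the libraries as neighbours in that order. By CPM without length the genes from Actg1 to Acta2 overlapped their neighbours (Actg1, Actb, Cfl2, Tmod1 and Acta2, between 300.3 and 580 CPM), as did Lmod2 and Lmod3.

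**Figure D1:**
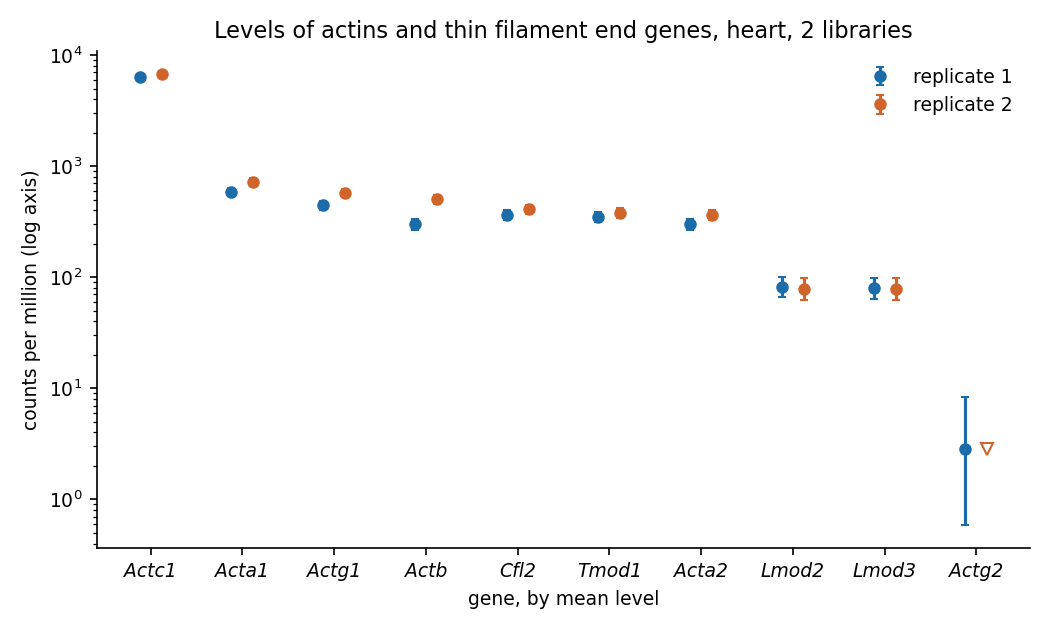
CPM on a log axis for the 10 genes in replicate 1 (blue) and replicate 2 (orange), ordered by mean level, with exact Poisson 95% intervals for counting error. Actc1 stands above all others at 6313 and 6716 CPM, and the open triangle for Actg2 in replicate 2 marks the limit of 3 counts (2.82 CPM) where 0 were seen.

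Tested over the whole table, 4 of 9 tested members passed the threshold between the libraries, all higher in replicate 2. Over all 10162 genes tested, 3.26% passed in either direction and 1.6% were higher in replicate 2. The test can call smaller differences in genes with more counts, and the members called had 319 counts or more in each library. With a minimum summed count of 50, 331 of 5446 genes passed, 156 of them higher in replicate 2. The 4 were Actb (log2 ratio 0.74 of replicate 2 over replicate 1, a ratio of 1.67 with interval 1.45 to 1.92, adjusted p = 4.9e-11 in the exact binomial test), Actg1 (0.38, ratio 1.30, 1.15 to 1.47, adjusted p = 9.8e-04), Acta1 (0.31, ratio 1.24, 1.11 to 1.38, adjusted p = 0.00405) and Actc1 (0.09, ratio 1.06, 1.03 to 1.1, adjusted p = 0.0133).

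The other 5 tested genes did not pass. Acta2 had a log2 ratio of 0.27 (adjusted p = 0.205 in the exact binomial test), Cfl2 of 0.17, Tmod1 of 0.11, Lmod2 of -0.06 and Lmod3 of -0.01. The ratio of Lmod2 had an interval of 0.703 to 1.31 and that of Lmod3 of 0.726 to 1.36, so counts of this size leave changes of that width undetectable. Actg2 was under the minimum summed count of 10 and was not tested.

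These calls depend on the scale. The median log2 ratio of all genes tested was 0.08, and TMM scaling, which removes that shift, left 2 members past the threshold, Actb (0.65, adjusted p = 1.1e-08) and Actg1 (0.30, adjusted p = 0.0249), while Acta1 lay at 0.23 (adjusted p = 0.0872) and Actc1 at 0.01 (adjusted p = 1.00). With the trend of the ratio on transcript length removed, Actc1 was the member that lost its call (0.07, adjusted p = 0.187). TMM scaling also moved the split of all calls from 163 higher and 168 lower in replicate 2 to 92 and 241. In edgeR's exact test with a common dispersion, which takes the spread between these libraries as noise, 0 of 9 members passed and 1 had an unadjusted p under 0.05. This held with TMM scaling (Actb 0.66, adjusted p = 0.909, biological coefficient of variation 0.124) and on the library totals used for the main values (Actb 0.74, adjusted p = 0.775).

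Markers that also passed between the libraries were 5 atrial genes, higher in replicate 1, and 3 of 9 cardiomyocyte markers. Of the latter Myh6, the main myosin of the mouse heart, was higher in replicate 2 (log2 ratio 0.15, adjusted p = 1.4e-26, exact binomial test), and Tnni3, cardiac troponin I, and Pln, phospholamban, were higher in replicate 1 (-0.45 and -0.31). With the length trend removed Myh6 lay at -0.04 and Tnni3 at -0.14, neither past the threshold. In that setting of the exact binomial test Pln stayed past it (-0.40, adjusted p = 1.4e-21) and Actn2 passed (-0.13, adjusted p = 0.0122). Under TMM scaling Myh6, Tnni3 and Pln stayed past the threshold and Myl3 passed as well (-0.14). In the edgeR exact test the atrial genes Nppa, Myl7, Myl4 and Sln stayed past it, while Dkk3 and the cardiomyocyte markers did not. The part of these markers in the calls of the members was not tested. Of 7 fibroblast markers and 6 endothelial markers, 0 passed the exact binomial test. Under TMM scaling 2 fibroblast markers passed, lower in replicate 2: Dcn (-0.28, adjusted p = 0.00993) and Tcf21 (-0.78, adjusted p = 0.0320). Dcn also passed that test with the length trend removed (-0.26, adjusted p = 0.0326). Fibroblast markers summed to 1857 and 1737 CPM and endothelial markers to 745 and 721 CPM. Their part in the levels of Actb and Actg1 was not tested.

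**Figure D2:**
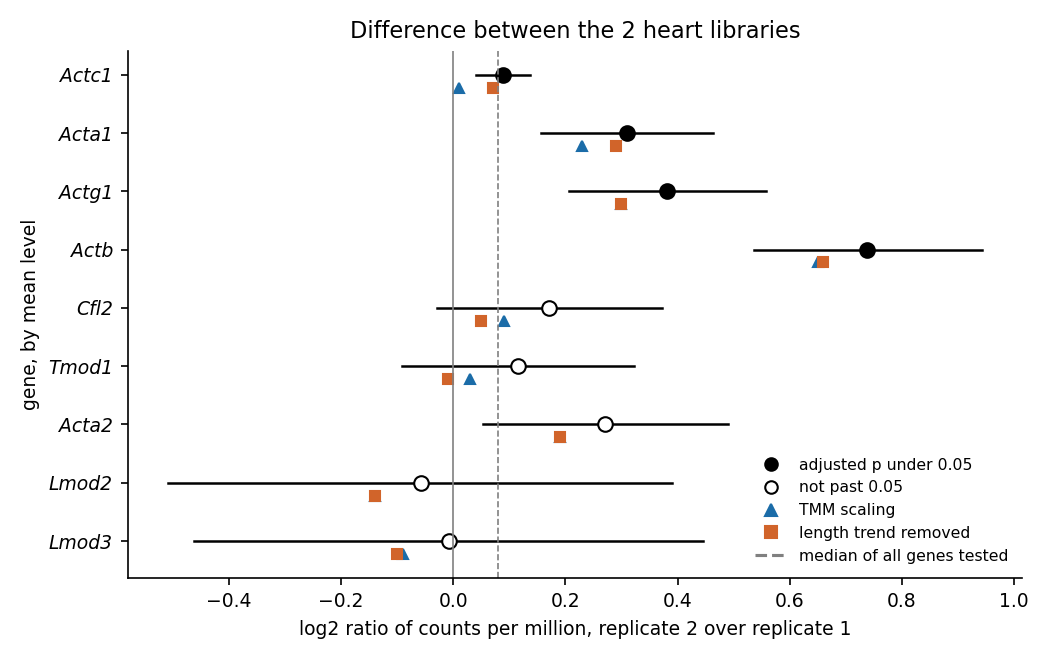
Log2 ratio of replicate 2 over replicate 1 for the 9 tested genes (circles, filled where the adjusted p was under 0.05), with exact 95% intervals for counting error. Triangles and squares give the ratio under TMM scaling and with the length trend removed, and the dashed line marks the median of all genes tested (0.08); Actb lies to the right of the other genes in each.

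Long reads also show which transcript each molecule is. The deposited tables class every model against the reference: an annotated transcript, ISM (part of an annotated chain of introns), NIC (known splice sites in a new combination), NNC (at least 1 new splice site) or Genomic (a model that overlaps a gene and belongs to none of these). In 7 of the 9 members with counts in each library the dominant transcript was the only annotated one seen; Actg1 showed 3 annotated transcripts and Cfl2 5 in replicate 1 and 4 in replicate 2.

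Acta1 and Acta2 were read almost wholly as their annotated transcript, and Actc1 for the most part. Acta1-201 held 95.8% and 95.9% of the counts of Acta1, Acta2-201 93.7% and 94.3% of those of Acta2, and Actc1-201 89.0% (88.3 to 89.8) and 88.5% (87.7 to 89.2) of those of Actc1. Over all reference genes the annotated share was 80.7% and 80.4%. The median over the 5693 genes with at least 20 counts in each library was 84.2% and 84.8%. The cytoplasmic actins followed at 83.4% and 88.2% (Actb) and 83.9% and 88.2% (Actg1).

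Lmod3 had the lowest annotated share of the tested members in replicate 1, and Cfl2 in replicate 2. For Lmod3 it was 65.5% in replicate 1 (54.3 to 75.5) and 79.8% in replicate 2 (69.6 to 87.7). Cfl2 had 80.5% and 79.4%, Tmod1 had 87.1% and 85.1%, and Lmod2 85.1% and 90.5%. For this share 0 of 9 members passed Fisher's exact test adjusted over 5693 genes, where 0.193% of all genes passed, and 1 of 9 had an unadjusted p under 0.05.

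**Figure D3:**
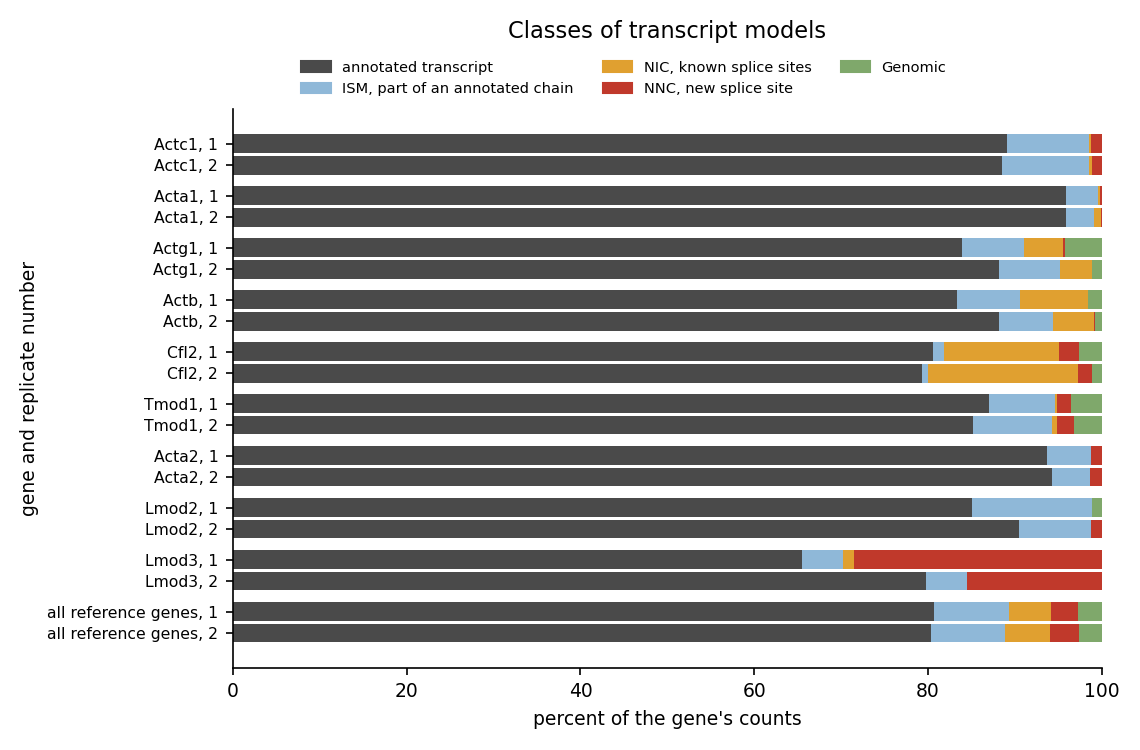
Share of each gene's counts by model class, in percent, for replicate 1 and replicate 2 of the 9 genes with counts in each library, and for all reference genes together. Lmod3 stands out by its NNC share (28.6% and 15.5%), Cfl2 by its NIC share (13.2% and 17.2%), and Acta1 and Acta2 by their annotated shares.

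Most of the molecules of Actc1 that left the annotated chain lacked exons at the 5' end. ISM models that keep the last exons took 8.35% and 9.41% of Actc1 counts, beside 6.58% and 6.59% over all reference genes. Chains of 6 of the 7 exons had 203 and 250 counts and chains of 5 exons 207 and 241, while chains of 4 exons had 93 and 111. Acta1, with the same number of exons and nearly the same length, had 2.89% and 2.58% of its counts in such models.

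The 3 most frequent new chains of introns in Actc1 each occurred in both libraries. The first, with 37 and 50 counts, enters exon 2 at another acceptor and so leaves out 7 bases of the 5' untranslated region. It took 0.612% (0.431 to 0.843) and 0.778% (0.578 to 1.03) of the molecules that cover the site. The start of exon 2 on the minus strand, chr2:114052031-114052060 of mm10, is shown because the bases left out (in capitals) end in AG, the ending that an acceptor needs.
Actc1 exon 2: CCTACAGaacccaccaaagctgtgccagga
The other new chains of Actc1 extend exon 6 into the last intron (chr2:114047925-114048304, 19 and 13 counts in the full chain) or splice in an unannotated exon of 51 bases there (chr2:114047925-114047975, 11 and 12 counts). An annotated first exon upstream, chr2:114053404-114053548, was used by 6 and 5 molecules of 6044 and 6426, or 0.0993% and 0.0778%.

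The cytoplasmic actins each carried an extra exon in the same intron. In Actg1 it is 45 bases long and belongs to the annotated transcript Actg1-206, which the annotation classes as a target of nonsense-mediated decay, the pathway that destroys mRNAs with an early stop codon. In Actb it is 63 bases long, belongs to the annotated non-coding transcript Actb-206, and was read here in a new chain that joins it to the rest of Actb-201. Each exon lies in intron 3, after 363 coding bases, between exons of 240 and 439 bases that have the same lengths in both genes. The exons are shown because each holds, in the frame of the annotated start codon, a stop codon (TGA, in capitals), which begins at base 34 of the Actg1 exon and at base 13 of the Actb exon. They lie on the minus strand of mm10 at chr11:120347492-120347536 and chr5:142905088-142905150.
Actg1 extra exon: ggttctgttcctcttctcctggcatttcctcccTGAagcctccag
Actb extra exon: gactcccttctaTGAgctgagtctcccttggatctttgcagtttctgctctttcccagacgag
The exons begin 99 bases (Actg1) and 86 bases (Actb) into the intron.

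In Actg1 the extra exon spliced on both sides was in 31 of 439 molecules that cover the intron in replicate 1 (7.06%, 4.85 to 9.87) and in 31 of 591 in replicate 2 (5.25%, 3.59 to 7.36). A further 23 and 18 molecules began the exon at the same acceptor and read on through the intron into exon 4. Forms with the stop codon thus summed to 54 molecules (12.3%, 9.38 to 15.7) and 49 molecules (8.29%, 6.20 to 10.8).

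In Actb the exon was in 25 of 305 molecules in replicate 1 (8.20%, 5.37 to 11.9) and in 20 of 518 in replicate 2 (3.86%, 2.37 to 5.90). Read-on forms were rare here, with 2 and 4 molecules, and all forms summed to 8.85% (5.92 to 12.6) and 4.63% (2.99 to 6.82). The share was lower in replicate 2, where Actb itself was higher, but the difference did not pass (adjusted p = 0.0850 over 14 splice forms, Fisher's exact test, unadjusted p = 0.0107).

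**Figure D4:**
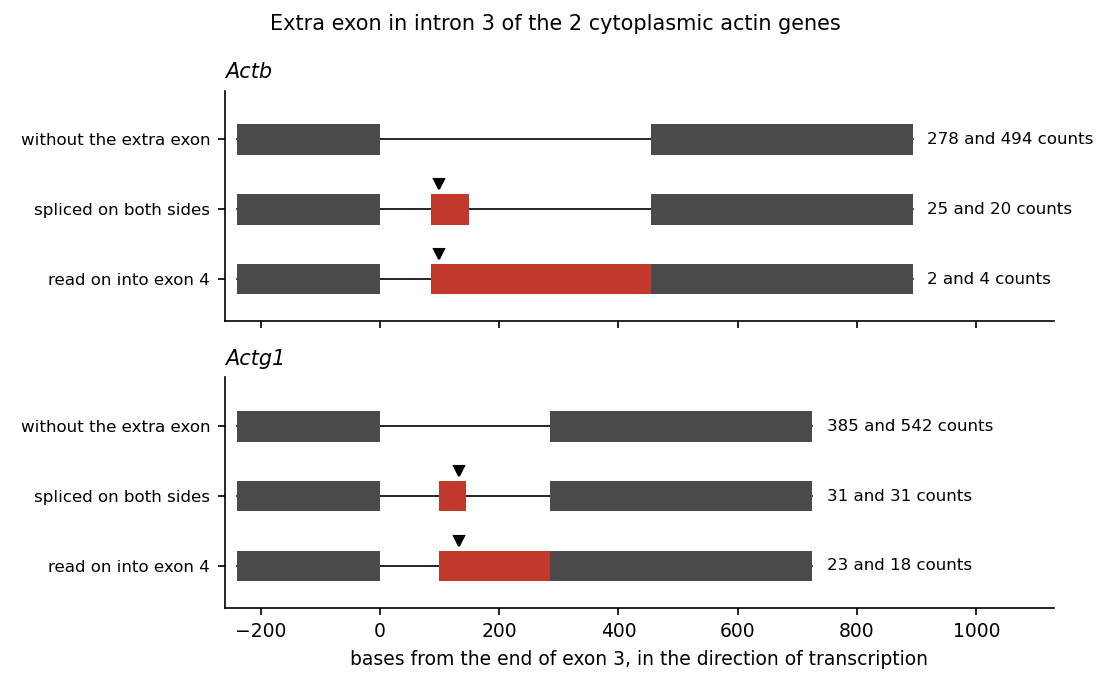
Map of intron 3 of Actb and Actg1 with exons 3 and 4 (dark) and the extra exon (red), in bases from the end of exon 3; triangles mark the in-frame stop codon. Numbers give the molecules in replicate 1 and replicate 2, with 25 and 20 for the Actb exon and 31 and 31 for the Actg1 exon spliced on both sides.

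The dominant transcript Actg1-202 held 89.1% and 91.4% of the annotated counts of Actg1, beside Actg1-206 with 29 and 30 counts and Actg1-204, which has the same coding region without the first exon, with 14 and 17. Neither Actg1 nor Cfl2, the members with enough annotated counts, passed the isoform test: 0 of 2, with 0 at an unadjusted p under 0.05 in Fisher's exact test, where 0.038% of 2633 genes passed.

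Cfl2 was read with several first exons and forms of exon 2. Its dominant transcript Cfl2-201 held 244 and 282 counts, or 63.4% and 64.7% of all Cfl2 counts. The annotated first exon, which ends with the start codon as its only 3 coding bases, was used by 297 of 370 molecules in replicate 1 (80.3%, 75.8 to 84.2) and 341 of 428 in replicate 2 (79.7%, 75.5 to 83.4). Another first exon with an annotated donor 333 bases downstream was used by 62 (16.8%, 13.1 to 20.96) and 83 (19.4%, 15.8 to 23.5), and the libraries did not differ past the threshold (adjusted p = 0.456, Fisher's exact test).

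First exons that start downstream of the annotated start codon and so lack it made up 60 and 83 molecules. Most of them join the usual exons 2 to 4 in a chain that the reference does not list as a whole, with 35 and 51 counts, and Cfl2-202, an annotated non-coding transcript, had 16 and 12.

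Inside exon 2 of Cfl2, which is 308 bases long in the dominant transcript, earlier donors gave forms of 54 and 165 bases. These are 254 and 143 bases shorter, neither a multiple of 3. The 54-base form was in 45 and 48 molecules (12.2%, 9.01 to 15.9, and 11.2%, 8.39 to 14.6) and occurs in Cfl2-203, an annotated non-coding transcript (35 and 37 counts). The 165-base form was in 31 and 27 molecules (8.38%, 5.76 to 11.7, and 6.31%, 4.198 to 9.05) and occurs in Cfl2-202 and in Cfl2-206, which is annotated as a target of nonsense-mediated decay (14 and 15 counts). The splice points are shown with 15 bases on each side, the first 6 bases that the form removes in capitals; each begins with GT, as donors do. They lie on the minus strand of mm10 at chr12:54861765-54861794 and chr12:54861654-54861683.
Cfl2 donor after 54 bases: tttaatgatatgaaaGTAAGAaaatcttct
Cfl2 donor after 165 bases: gccaagcagatcttgGTGGGTgacattggt

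Most of the other counts of Lmod3 shared 1 structure. A first exon that the reference lacks, ending at chr6:97253035, lies 276 bases upstream of the annotated start of the transcript. It is joined over an intron of 439 bases to a new acceptor within annotated exon 1, which removes 164 bases of that exon and leaves 24 bases before the start codon. The full chain had 20 and 12 counts, or 23.8% and 14.3% of Lmod3. All molecules with this first exon were 23 of 81 in replicate 1 (28.4%, 18.9 to 39.5) and 13 of 80 in replicate 2 (16.2%, 8.95 to 26.2), and the libraries did not differ past the threshold (adjusted p = 0.308, Fisher's exact test). The new exon runs to at most chr6:97253205, and no file used here holds its sequence.

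Lmod2 left its annotated chain in a single way of any frequency. Its 3-exon transcript Lmod2-201 had 74 and 76 counts, and models of exons 2 and 3 alone had 12 and 6 in the class ISM. Tmod1, with 10 exons and an annotated transcript of 3158 bases the longest of the set, was still read with its whole chain of introns by 323 and 344 molecules of 371 and 404. Its other counts lay mostly in 1-exon Genomic models (13 and 13), 1-exon ISM models (13 and 10) and partial chains.

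**Figure D5:**
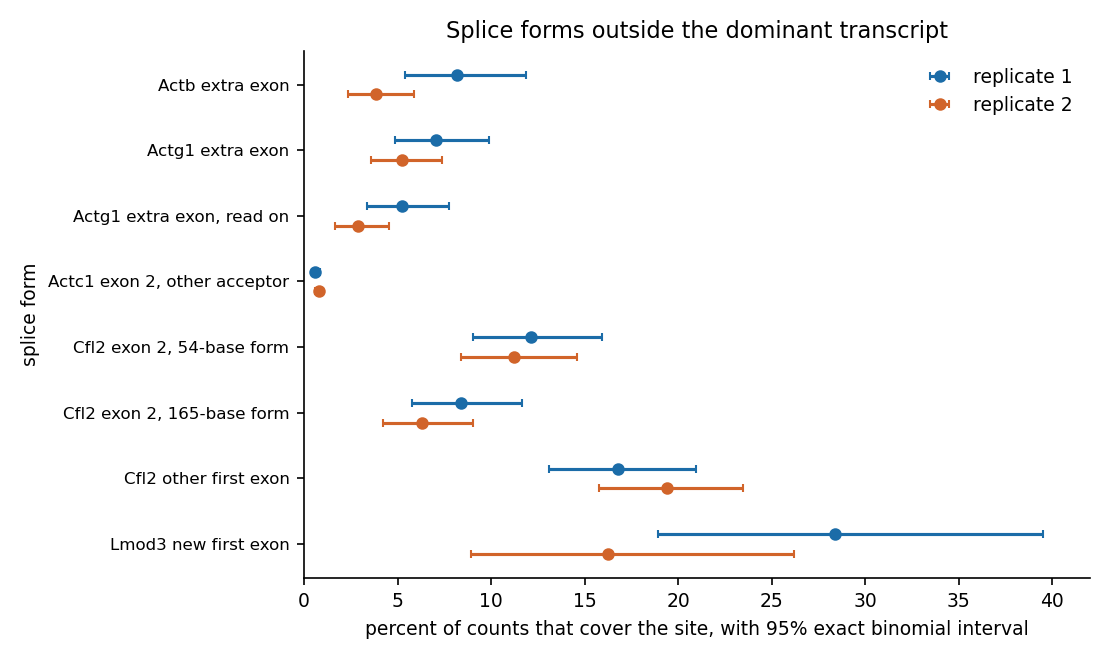
Share of the molecules covering each site that carry a form outside the dominant transcript, in percent, with exact binomial 95% intervals, in replicate 1 (blue) and replicate 2 (orange). The new first exon of Lmod3 has the widest interval (18.9 to 39.5 in replicate 1), and the forms of Cfl2 lie close together in the libraries.

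Of the 14 splice forms with at least 10 counts in all, 0 passed the threshold in Fisher's exact test and 2 had an unadjusted p under 0.05, the extra exon of Actb and an exon 3 of Actc1 longer by 2 bases (327 in place of 325, 1 and 10 molecules, adjusted p = 0.0850). In the 10 genes there were 145 multi-exon chains, of which 70 occurred in each library. The other 75 held 95 counts in all. The novelty class of the same chain differed between the libraries in 5 of the 70.

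Further genes of thin filament length and actin turnover, 45 in all by role, were read in the same tables. Of 40 tested, 3 were higher in replicate 2 and 2 in replicate 1, beside 1.6% of all genes higher in replicate 2 and 3.26% called in either direction, with a median log2 ratio of 0.17 (0.17 for the 9 tested members and 0.08 for all genes). In the edgeR exact test with the common dispersion each of these 5 calls was lost (adjusted p = 1.00 for 4 of them and 0.876 for Xirp2). Other pointed-end proteins were led by Tmod3 (86.2 ± 7.65 CPM), the tropomodulin of most non-muscle cells, and Tmod4 (6.58 ± 3.97), and none passed. The barbed-end capping subunits Capzb (484 ± 27.1 CPM) and Capza2 (465 ± 26.2) led 6 genes, of which 0 passed.

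Among severing and depolymerising proteins Gsn, the gelsolin gene, had 2183 and 1729 counts (1843 ± 309 CPM), the highest of the 45, and was higher in replicate 1 (log2 ratio -0.34, adjusted p = 2.6e-11, exact binomial test). Wdr1, a helper of cofilin, was higher in replicate 2 (246 and 354 counts, 0.52, adjusted p = 9.8e-04), though not with the length trend removed (adjusted p = 0.0507), and Dstn (533 ± 27.3 CPM), destrin, did not pass. Of the monomer-binding and nucleating genes Tmsb10, a thymosin that holds actin monomers, was higher in replicate 1 (566 and 462 counts, -0.30, adjusted p = 0.0333) but lay at -0.02 with the length trend removed, and Pfn1, profilin, had 436 and 446 counts.

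Cofilin kinases and phosphatases were low, led by the kinases Tesk1 (56.5 ± 1.12 CPM) and Limk2 (29.2 ± 7.88), and 0 of 6 tested passed. Of the nebulin family and the stabilisers of Lmod3, Nrap (121 ± 18.9 CPM) and Nebl (85.7 ± 6.34) led. Xirp2, an actin-binding protein of intercalated discs, passed (17 and 42 counts, log2 ratio 1.25, adjusted p = 0.0480 in the exact binomial test), though not under TMM scaling (adjusted p = 0.0677) or with the length trend removed (adjusted p = 0.164). Neb, the skeletal muscle ruler of thin filaments, had 4 and 1 counts.

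Serum response factor (SRF) drives many muscle and cytoskeletal actin genes through the CArG box. Srf had 63 and 79 counts (log2 ratio 0.31, adjusted p = 0.718, exact binomial test), and its cofactor Fhl2 had 1432 and 1987 (0.46, adjusted p = 4.6e-18). The RefSeq promoter table of GRCm38.p6 (250 bases before to 50 after the start, the same assembly as mm10) held 7 of the 10 genes, all but Actb, Actg2 and Lmod3. A CArG box was found in 3 of the 7 on either strand, and in 535 of 32851 promoters in all (1.63%). The 3 were Actc1, Acta1 and Actg1, and their boxes are shown in capitals in windows upstream of the start, on the minus strand at chr2:114052888-114052947, chr8:123894814-123894873 and chr11:120348551-120348610.
Actc1 promoter: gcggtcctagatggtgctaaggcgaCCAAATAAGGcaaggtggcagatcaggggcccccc
Acta1 promoter: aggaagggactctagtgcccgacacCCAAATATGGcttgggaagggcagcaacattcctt
Actg1 promoter: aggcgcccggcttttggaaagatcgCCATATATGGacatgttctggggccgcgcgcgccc
The boxes begin 47, 73 and 90 bases before the start. A match is a string of letters and not a measured site, and in Acta2, Tmod1, Lmod2 and Cfl2 the pattern was not in this window.

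Models on the opposite strand held more than 3 counts in each library at 3 members. At Actc1, unspliced and rare 2-exon models of the class Genomic assigned to the antisense gene A530058N18Rik held 241 and 224 counts, 3.60% and 3.13% of the counts of Actc1. At the 3' end of Actb, a new antisense gene of 1 exon held 93 and 78 counts, 29.2% and 14.6% of the counts of Actb. At the 3' end of Tmod1, models of the annotated neighbour Tstd2 held 16 and 25 counts, 4.31% and 6.19% of the counts of Tmod1. The files do not say how strand was set, so at Actc1 and Actb reads of a gene and its antisense partner cannot be told apart here. The models of Tstd2 include its annotated transcripts, which reach chr4:46117083, past the end of Tmod1 at chr4:46116032. Not all of their counts can thus be reads of Tmod1. With the opposite-strand counts added, Actb had 412 and 613 counts and a log2 ratio of 0.56 (adjusted p = 7.9e-08, exact binomial test) and Actc1 had 6927 and 7374 and 0.08 (adjusted p = 0.0252). Tmod1 then had 387 and 429 counts and a log2 ratio of 0.14 (adjusted p = 0.671, exact binomial test).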

How the data were processed

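Heart tissue was profiled in 2 long-read RNA libraries. The authors deposited a whole-number read count for each transcript model, per the file headers, with nothing normalized and no model under 1 count. The deposited annotation combines GENCODE M21 on mm10 with new models of source TALON. Not given in the sources used here: aligner, tool versions, filters on models and handling of strand. Counts were summed per gene; totals and tests exclude spike-ins (1.72% and 1.25%) and new genes (2.68% and 2.89% of all deposited counts).

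Genes with a summed count of at least 10 were compared by an exact binomial test (two-sided, conditional on the sum, against the library totals), and log2 ratios used CPM plus 1. Shares were compared by two-sided Fisher's exact tests, for the isoform and annotated-share tests in genes with at least 20 counts in each library. P-values were adjusted by Benjamini-Hochberg over all genes tested, the 11 pairs or the 14 splice forms, at a threshold of 0.05. Shares carry 95% Clopper-Pearson intervals. Since reads carry no molecular identifiers, they may not be independent, and intervals and limits cover counting error only. Splice forms were read from intron chains, matched between libraries by every intron, among spliced molecules that reach past the site on both sides. Members, role lists and tests were chosen with earlier results of these data known. By rule the text names all members, their dominant and frequent models, the 2 highest genes of each role and those past the threshold; the splice forms, the opposite-strand models and Neb, Cfl1 and the marker genes given were named after their values were seen. The tests were tried on simulated data that held counting error only, so their behaviour under further spread between libraries was not tried. Alternatives were TMM and median-of-ratios scaling, other count minimums and pseudocounts, fewer model classes, removal of a length trend, edgeR with the common dispersion, and each library alone. Tools were Python 3.11.15, scipy 1.17.1, statsmodels 0.14.6, pandas 2.3.3, R 4.3.3 and edgeR 4.0.16.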

Additional observations from a re-analysis of the deposited data

Results flagged for a closer look

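Counts on the strand opposite to Actc1 and Actb, in Genomic models or a new gene that the levels of these members do not use, lay above the limit of 3 counts. At Actc1 the models assigned to A530058N18Rik held 241 counts in replicate 1 and 224 in replicate 2. All but 1 of the 242 counts of A530058N18Rik in replicate 1, and all 224 in replicate 2, lay in these Genomic models, between chr2:114047282 and chr2:114052762, within the span of Actc1, while Actc1 itself had 0 counts in the class Genomic in each library. At Actb the new antisense gene held 93 counts in replicate 1 and 78 in replicate 2, between chr5:142903234 and chr5:142903654, within the last exon of Actb. At Tmod1 the annotated neighbour Tstd2, read in models of several classes, held 16 and 25 counts on the opposite strand. At Acta2 the same search found 3 and 2 counts, at or under that limit. The source of these reads was not tested.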

How the results depend on the processing

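Alternatives were tried one at a time, except that the edgeR exact test with the common dispersion was first run with TMM scaling. The count of genes past the threshold between the libraries was 331, moved to 201 with the length trend removed and to 22 in that edgeR test. Of the members 4 passed, 2 under TMM scaling, 2 under median-of-ratios size factors and 0 in that edgeR test (1 at an unadjusted p under 0.05). On the library totals, without scaling factors, the edgeR test also called 22 genes and 0 members. The isoform test called 1 gene, and 13 when the dominant transcript was set against all other models. The annotated-share test called 11 genes, and 106 when ISM models counted as annotated; the members called stayed at 0 in each. The log2 ratio changed sign in 3 genes that were never past the threshold: Tmod1 to -0.01 with the length trend removed, and Lmod2 to 0.04 and Lmod3 to 0.28 on transcripts with a reference identifier alone. Of 81 log2 ratios under the other settings (without those chosen after seeing the data) 69 kept their direction and their side of the threshold. The edgeR test on the library totals, counts of opposite-strand models and all counts of a gene as the denominator of splice forms were alternatives chosen after seeing the data; 13 of 14 splice forms moved by less than 1 SD. No paired analysis was possible because the series holds 1 group. A test between the libraries needs both, so leaving out a library gives levels and no test. Depth limits Lmod2, Lmod3 and Actg2 most, with 87 counts or fewer in each library.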
